A study of Mus musculus with 9 samples.

Results

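The subunits of the transcription factor AP-1 (Fos, Fosb, Fosl1, Fosl2, Jun, Junb and Jund), the stress-induced factor Atf3 and the immediate early genes Egr1 and Ier3 were followed across the study's 9 arrays. Members were taken by name: every probe set whose single gene symbol in the platform annotation is one of these 10 genes, which gave 14 probe sets of the 45037 analysed. Of the 14, 12 passed a filter on dim signals and were tested. The arrays formed 3 groups of 3, all from cells that the labels call type II cells, the surfactant-making epithelial cells of the lung. The first group was Nrf2-/- cells supplemented with GSH (the usual abbreviation of glutathione), the second was Nrf2-/- cells and the third was Nrf2+/+ (wild-type) cells. Per the labels all 9 came from female ICR10 mice of 2 months, though sex-linked genes disagreed with that sex in wild type (below). All spent 5 days in culture with keratinocyte growth factor, on a coat of collagen and fibronectin, which all groups therefore share. Nrf2 is a transcription factor that switches on antioxidant genes. Neither the labels nor the design text describes the Nrf2 allele, the dose and time of GSH or why GSH was added; the title speaks of WT and Nrf2-/- mice. The design text counts 3 sets of isolated cells per genotype, and the labels give n = 1 and 1 tissue per array. How many mice stand behind a group is left unsaid, so the p-values cover array-to-array spread, part of which may be technical.

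AP-1 is a pair of proteins held together by their leucine zippers, either 2 Jun proteins or a Jun with a Fos protein, and it binds a short DNA element named after the phorbol ester TPA. Its subunits differ in strength: c-Jun and c-Fos are strong activators, while Fra-1 (from Fosl1) and Fra-2 (from Fosl2) lack the strong activation domain of c-Fos. Immediate early genes are transcribed within minutes of a growth factor, stress or fresh medium, without new protein synthesis, and their transcripts decay fast. Nrf2 belongs to the same wider class of basic leucine zipper proteins, and the antioxidant response element it binds resembles the AP-1 element.

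Promoters are shown for the 4 members whose window held TGACG, the core of the cAMP response element, through which Fos and Atf3 are known to be induced. They set Fos and Atf3, which were higher in both Nrf2-/- groups than in wild type, beside Junb, which was higher with GSH with the set in the model, and Fosb, which passed no test. Each window runs from 250 bases before to 50 bases after the RefSeq start in GRCm38.p6, written 5′ to 3′ on the gene's strand. Capitals mark TGACG on either strand (CGTCA where it lies on the other strand) and TATAAA, the letters of the TATA box. The windows are chr12:85473640-85473939 (plus strand) for Fos, chr1:191183284-191183583 (minus strand) for Atf3, chr8:84978699-84978998 (minus strand) for Junb and chr7:19309996-19310295 (minus strand) for Fosb.
Fos: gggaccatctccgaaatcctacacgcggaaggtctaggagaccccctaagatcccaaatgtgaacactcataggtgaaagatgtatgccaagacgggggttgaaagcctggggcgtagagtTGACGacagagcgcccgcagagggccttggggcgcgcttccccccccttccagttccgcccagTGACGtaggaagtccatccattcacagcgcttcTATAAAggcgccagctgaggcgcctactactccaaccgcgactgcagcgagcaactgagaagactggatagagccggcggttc
Atf3: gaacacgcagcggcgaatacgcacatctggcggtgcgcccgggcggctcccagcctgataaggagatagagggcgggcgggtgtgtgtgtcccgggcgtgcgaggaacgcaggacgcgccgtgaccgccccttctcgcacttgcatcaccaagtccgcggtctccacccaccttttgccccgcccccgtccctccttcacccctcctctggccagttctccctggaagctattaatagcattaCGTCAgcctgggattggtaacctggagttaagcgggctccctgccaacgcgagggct
Junb: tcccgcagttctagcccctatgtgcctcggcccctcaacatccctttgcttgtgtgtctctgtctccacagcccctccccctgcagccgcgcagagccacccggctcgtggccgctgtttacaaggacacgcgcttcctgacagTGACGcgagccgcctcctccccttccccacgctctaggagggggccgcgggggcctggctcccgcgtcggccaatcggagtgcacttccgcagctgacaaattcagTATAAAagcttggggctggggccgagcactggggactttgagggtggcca
Fosb: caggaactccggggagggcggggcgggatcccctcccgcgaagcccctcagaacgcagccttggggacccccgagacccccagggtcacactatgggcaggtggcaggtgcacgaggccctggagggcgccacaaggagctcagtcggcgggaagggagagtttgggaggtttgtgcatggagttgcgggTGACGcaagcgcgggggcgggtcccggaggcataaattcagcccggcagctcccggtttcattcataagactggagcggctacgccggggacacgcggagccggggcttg

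In the Fos window TGACG began at -129 and -66 and the TATA box at -33, counted from the start as 1. The Atf3 match lay on the other strand at -7, the Junb match at -106 and the Fosb match at -60. The Junb TATAAA began at 1, at the annotated start and not before it. RefSeq windows of 8 members were searched, and Egr1 and Fosl1 were not covered. TGACG lay in 4 of them and in 20.81% of all 32851 windows. TATAAA lay in 2 of the 8, Fos and Junb, and in 13.62% of all. None of the 8 held TGACTCA, the TPA response element (5.2% of all windows), TGACGTCA, the full cAMP response element (1.79%), TGACNNNGC, the core of the antioxidant response element (12.39%), or the CArG box bound by serum response factor (1.63%). TGACGTCA contains TGACG on both strands. All were searched on both strands, and a match or its absence describes only these letters in these windows. Sites further from the start were not searched.

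The deposited values were array signals in arbitrary units with a 2% trimmed mean of 500 on every array. Nfe2l2, the gene of Nrf2, read 33.3 to 46.2 in Nrf2-/- cells with GSH and 28.7 to 77.4 in Nrf2-/- cells, against 3878.6 to 4172.8 in wild-type cells. The X-inactivation RNA Xist read 2693.5 to 4776.6 with GSH and 2443.8 to 4642.9 in Nrf2-/- cells, against 132.2 to 187.8 in wild type, and the Y-linked gene Eif2s3y read 1.9 to 16.2 with GSH and 1.5 to 24.4 in Nrf2-/- cells, against 701.3 to 936.3 in wild type. By these genes the wild-type cells read as male and both Nrf2-/- groups as female, although the labels call all mice female. Genotype and sex therefore cannot be told apart in the comparisons with wild type. A number in the titles splits each group into 2 arrays of set 2 and 1 array of set 3, and the set was a term in the fit. The labels leave the meaning of the number unsaid.

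The labelled cell type was weakly borne out by its defining markers. Sftpc, the most specific surfactant gene of type II cells, read 73.8 to 131.8 with GSH, 55.1 to 144.9 in Nrf2-/- cells and 25.5 to 44.6 in wild-type cells, where it lay below the control level on all 3. The control level, taken from unspiked bacterial control probe sets, was 43.45 to 82.94 by array. Summed over the 8 type II markers measured, signals were 4281.1 to 4811.6 with GSH, 3172.7 to 3456.1 in Nrf2-/- cells and 2922.5 to 3482.1 in wild type. All 15 macrophage markers passed the filter, although the protocol panned macrophages out, and their sums were 128582 to 151503 with GSH, 97563.6 to 118807 in Nrf2-/- cells and 63563.4 to 65913.3 in wild type. Sums of the 11 fibroblast markers were 56405.3 to 65572.6 with GSH, 110843 to 144923 in Nrf2-/- cells and 88181.3 to 96496.7 in wild type. Fn1 and Vim, the brightest of the 11 with GSH (means of 21634 and 21884), weigh most in these sums there. The median log2 difference of the 11 was -2.54 with GSH against Nrf2-/- cells. It was -1.60 with GSH against wild type and 0.44 in Nrf2-/- against wild-type cells. Sums of the 6 epithelial markers were 65757.2 to 69245.5 with GSH, 13468.1 to 14802.4 in Nrf2-/- cells and 47024 to 49390.8 in wild type. Those of the 8 type I markers were 12928.3 to 14136.1 with GSH, 12025.4 to 15174.9 in Nrf2-/- cells and 15846.1 to 17998.1 in wild type. Endothelial markers (5 measured, sums of 975.9 to 1636.6 over all arrays) and lymphocyte markers (5 measured, 277.6 to 421.9) were dim, and Cd3g of T cells was above the control level on no array. In bulk cultures, fewer cells of a type and less RNA per cell cannot be told apart.

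Fos, Atf3 and Egr1 were higher and Fosl1 and Ier3 lower in Nrf2-/- than in wild-type cells. With GSH, Egr1 was lower and Atf3 and Ier3 were higher than in Nrf2-/- cells without it. With the set in the model Junb was also higher. That call was lost at the same difference with the replicate number as a block (limma adjusted p = 0.22). The block joins a wild-type array of set 2 with Nrf2-/- arrays of set 3, and all arrays share its estimate of spread. The fit was limma on log2 signals of all 9 arrays, with Benjamini-Hochberg adjustment over the 22519 probe sets that passed the filter, and a probe set was called at an adjusted p under 0.05. Between Nrf2-/- cells with GSH and those without, 4 of the 12 member probe sets were called, 3 higher and 1 lower, where 35.4% of all probe sets tested were called (18.4% higher, 17.0% lower). Between Nrf2-/- cells with GSH and wild type it was 6 of 12, 4 higher and 2 lower, where 44.7% of all were called (22.5% and 22.3%). Between Nrf2-/- and wild-type cells it was 6 of 12, 3 higher and 3 lower, where 29.1% of all were called (14.6% in each direction). Groups did not overlap in 5 of the 12 between the Nrf2-/- groups (33.6% of all probe sets), 5 between GSH and wild type (43.4%) and 6 between Nrf2-/- and wild type (30.2%). Median log2 differences of the 10 leading probe sets (the brightest per gene) were 0.03 between the Nrf2-/- groups, 0.06 between GSH and wild type and -0.02 between Nrf2-/- and wild type, against 0.04, 0.02 and 0.00 over all probe sets tested. The comparisons share arrays, so their calls are not independent of each other.

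**Figure D1:**
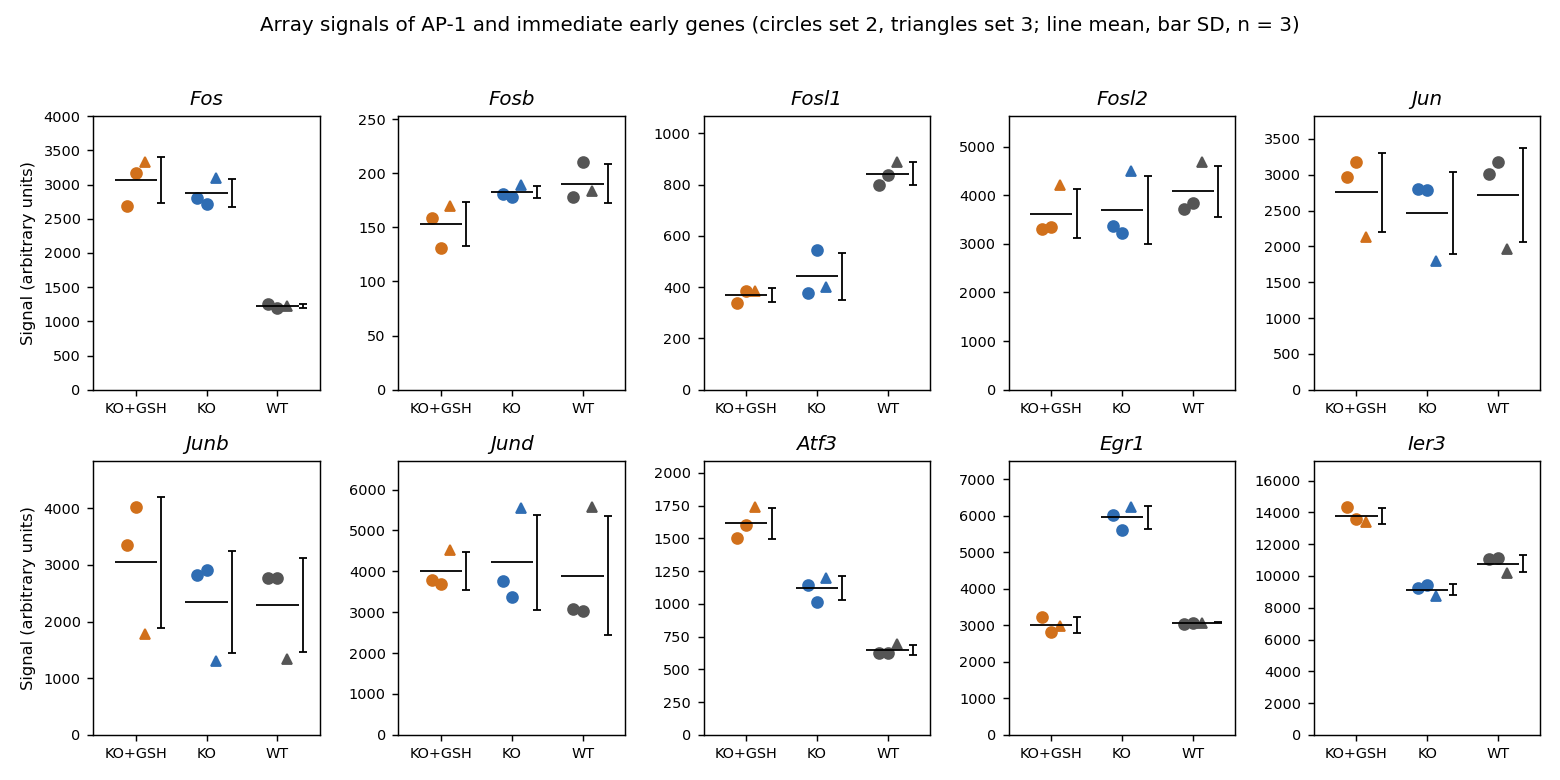
Signal (linear scale from 0, arbitrary units) of the leading probe set of each of the 10 genes on each array, by group (KO+GSH, KO and WT stand for Nrf2-/- with GSH, Nrf2-/- and wild type), with the mean as a line and the SD as a bar (n = 3). Circles are arrays of set 2 and triangles arrays of set 3. The 3 Egr1 values of Nrf2-/- cells without GSH, 5617.8 to 6249.2, stand above all 6 others, and the Junb triangles lie below the circles in every group.

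Fos, which encodes the strong activator c-Fos, read 2687.7, 3171.2 and 3334.1 in Nrf2-/- cells with GSH and 2806.5, 2712 and 3102.8 in Nrf2-/- cells, against 1255, 1191.1 and 1230.5 in wild-type cells. Every Nrf2-/- array, with or without GSH, stood above every wild-type array, and the Nrf2-/- groups overlapped. The log2 difference of Nrf2-/- cells with GSH from wild type was 1.32 ± 0.08 (SE), a 2.49-fold rise (limma adjusted p = 1.0e-07). Without GSH the difference from wild type was 1.23 ± 0.08, or 2.34-fold (limma adjusted p = 5.1e-07). Between the Nrf2-/- groups it was 0.09, with a 95% interval of -0.08 to 0.26 (limma adjusted p = 0.41). Macrophage marker sums were also higher in both Nrf2-/- groups than in wild type (128582 to 151503 with GSH and 97563.6 to 118807 in Nrf2-/- cells, against 63563.4 to 65913.3 in wild type). Unlike Fos, they did not overlap between the Nrf2-/- groups. Their part in the Fos difference was not tested. Among the 11619 other genes tested, the 5 with the log2 profile nearest to that of Fos over the 9 arrays, each profile centred on its own mean, were Ifih1, Slfn9, Samd9l, Psmb8 and C1qb, at root mean square differences of 0.088 to 0.125. Ifih1, the nearest of the 5 and a sensor of viral RNA, averaged 2063 with GSH and 1879 in Nrf2-/- cells, against 786 in wild type. C1qb, the least near of the 5, averaged 1817 with GSH and 2041 in Nrf2-/- cells, against 756 in wild type. It encodes a complement chain made by macrophages and is one of the macrophage markers above.

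Fosl1, the gene of Fra-1, moved the other way. Its leading probe set read 339.6, 386.3 and 385.6 in Nrf2-/- cells with GSH and 378.4, 546.2 and 400.9 in Nrf2-/- cells, against 800.3, 837.4 and 889.2 in wild-type cells. Neither Nrf2-/- group overlapped with wild type, and among the Nrf2-/- arrays without GSH replicate 3 was the highest array. Fosl1 fell 2.28-fold with GSH against wild type (log2 difference -1.19 ± 0.14 SE, limma adjusted p = 3.6e-05) and 1.93-fold without GSH (-0.95 ± 0.14, limma adjusted p = 4.2e-04). Between the Nrf2-/- groups the difference was -0.24, with a 95% interval of -0.55 to 0.07 (limma adjusted p = 0.22), and without Nrf2-/- replicate 3 it was -0.06 (limma adjusted p = 0.72). Type I marker sums were lower in both Nrf2-/- groups too (12928.3 to 14136.1 with GSH and 12025.4 to 15174.9 in Nrf2-/- cells, against 15846.1 to 17998.1 in wild type), while macrophage sums were higher. Their part in the Fosl1 differences was not tested. The other Fosl1 probe set was too dim to pass the filter. It read 63.1, 52.5 and 66.8 with GSH, above the control level on 1 of 3 arrays, 114.4, 189.2 and 81.6 in Nrf2-/- cells and 244.1, 155.7 and 108.2 in wild type. Its means of 60.8 with GSH, 128.4 in Nrf2-/- cells and 169.3 in wild type ran in the order of those of the leading probe set (370.5 with GSH, 441.8 in Nrf2-/- cells and 842.3 in wild type), but its Nrf2-/- and wild-type arrays overlapped.

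Fosb and Fosl2 moved little. Fosb, whose protein can be made in a long-lived short form in neurons, read 158.3, 130.9 and 170.1 with GSH, 180.5, 178.4 and 188.8 in Nrf2-/- cells and 177.7, 210.6 and 183.1 in wild-type cells. The GSH arrays lay below all others, but the log2 differences were -0.26 from Nrf2-/- cells and -0.32 from wild type, with 95% intervals of -0.64 to 0.12 and -0.70 to 0.06 (limma adjusted p = 0.27 and 0.16). Between Nrf2-/- and wild-type cells the interval was -0.44 to 0.32 (limma adjusted p = 0.84). Fosl2, the gene of Fra-2, read 3305.6, 3346 and 4207.3 with GSH, 3363.1, 3232.8 and 4501.6 in Nrf2-/- cells and 3713.1, 3833 and 4689 in wild-type cells. The groups overlapped, and the set 3 array, the last value, was the highest in each. The drop with GSH against wild type, -0.17 ± 0.06 on the log2 scale, passed the test (limma adjusted p = 0.031) and that of Nrf2-/- cells did not (-0.15, limma adjusted p = 0.078). The other Fosl2 probe set missed the threshold in both (-0.25 and -0.26, limma adjusted p = 0.079 and 0.10), and the leading one lost its call without the set in the model (limma adjusted p = 0.46) and in 10 of the 18 other alternatives. These include leaving out GSH replicate 2, 3 or 4 (limma adjusted p = 0.060, 0.055 and 0.10) or wild-type replicate 3 or 4 (limma adjusted p = 0.087 and 0.13). Between the Nrf2-/- groups the Fosl2 intervals were -0.15 to 0.10 and -0.24 to 0.24 for the 2 probe sets.

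**Figure D2:**
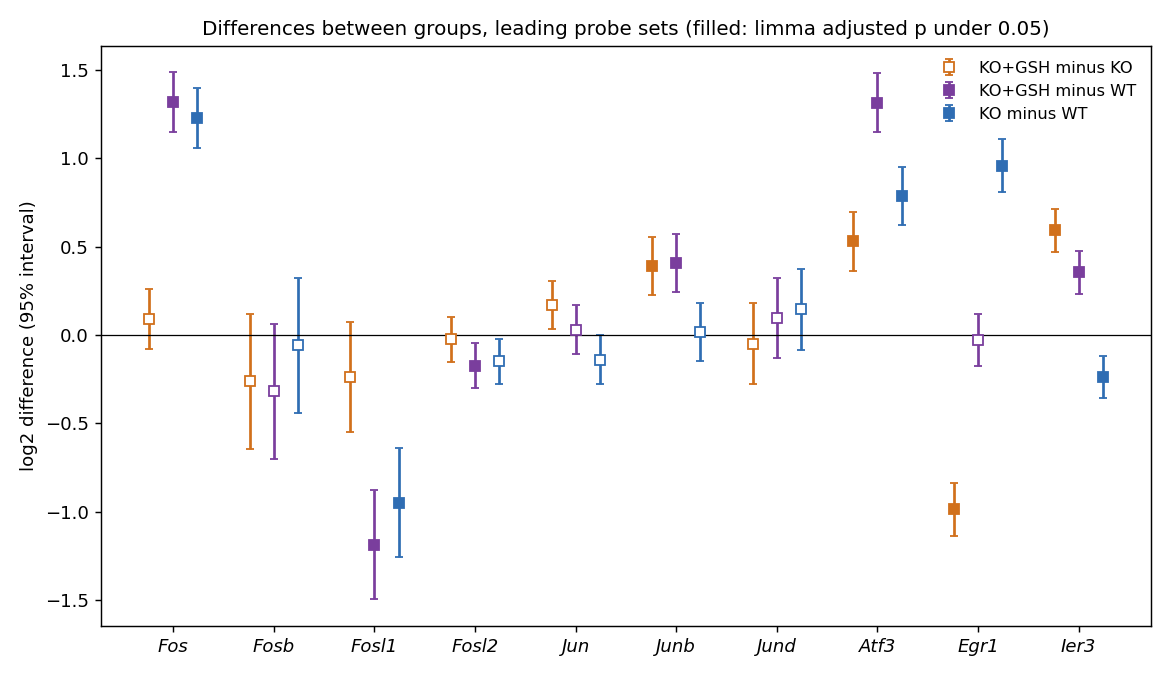
Log2 differences between groups (y axis) for the leading probe set of each gene (x axis), with unadjusted 95% intervals from limma. Filled squares passed an adjusted p under 0.05. Fos stands near 1.3 and 1.2 in both comparisons with wild type, Egr1 has opposite signs in the GSH and genotype comparisons (-0.99 and 0.96), and Atf3 is above 0 in all 3.

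Jun family genes, whose proteins are the obligate partners of Fos proteins in AP-1, showed larger differences between sets than between groups in their brightest probe sets. Junb, the gene of a Jun protein that can restrain c-Jun, read 3348.1, 4022.5 and 1772.7 with GSH, 2824.3, 2902.6 and 1298.5 in Nrf2-/- cells and 2761.1, 2774.1 and 1341.7 in wild-type cells. The last value of each group is the set 3 array, which was the lowest, so the groups overlapped although each GSH array lay above the arrays of its own set. With the set in the model Junb was higher with GSH than in Nrf2-/- cells by 0.39 ± 0.07 on the log2 scale (1.31-fold, limma adjusted p = 0.0016) and than in wild type by 0.41 ± 0.07 (limma adjusted p = 9.4e-04). Within set 2 these differences were 0.36 and 0.41 (limma adjusted p = 0.022 and 0.0097), and between the single arrays of set 3 they were 0.45 and 0.40. The call between the Nrf2-/- groups was lost with the replicate number as a block (0.39, limma adjusted p = 0.22) and with no set in the model (limma adjusted p = 0.59). The call with GSH against wild type was lost in both too (-0.09 and 0.41, limma adjusted p = 0.83 and 0.52), with its sign turned under the block. That block joins wild-type replicate 4, of set 2, with replicates 4 of the Nrf2-/- groups, of set 3, so against wild type it does not separate the set from the group. Nrf2-/- and wild-type cells differed by 0.02 (95% interval -0.15 to 0.18, limma adjusted p = 0.90).

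Jun, the gene of c-Jun, gave 2961.5, 3175.7 and 2133.4 with GSH, 2806.3, 2789.8 and 1800.7 in Nrf2-/- cells and 3013.1, 3180.7 and 1966.4 in wild-type cells by its leading probe set. The groups overlapped, and no comparison passed the test (limma adjusted p = 0.056 with GSH against Nrf2-/- cells, 0.73 with GSH against wild type and 0.12 for Nrf2-/- cells against wild type). The first of these passed without GSH replicate 2 (0.21, limma adjusted p = 0.031). The other Jun probe set read 1180.9, 1316.4 and 1136.9 with GSH, 996.9, 1130.1 and 1020.8 in Nrf2-/- cells and 1272.5, 1317.8 and 1142.5 in wild-type cells. All 3 values of Nrf2-/- cells without GSH lay below the others, and the difference from wild type of -0.25 ± 0.08 (SE, log2 scale) passed the test (limma adjusted p = 0.039), while that between the Nrf2-/- groups, 0.21, did not (limma adjusted p = 0.066). The 2 Jun probe sets thus pointed the same way in that comparison (-0.14 and -0.25) with only the dimmer one called.

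Jund, which encodes the Jun protein most often present in resting cells, read 3799.4, 3681.5 and 4527.3 with GSH, 3753, 3367.5 and 5548.1 in Nrf2-/- cells and 3076, 3027.9 and 5575.7 in wild-type cells. Its set 3 arrays were the highest of each group, and the groups overlapped. No comparison passed the test, with 95% intervals of -0.28 to 0.18 between the Nrf2-/- groups, -0.13 to 0.32 with GSH against wild type and -0.08 to 0.37 for Nrf2-/- cells against wild type. Within set 2 Jund was higher with GSH than in wild type (0.29, limma adjusted p = 0.020), while the set 3 arrays differed by -0.30. It also passed without GSH replicate 4 (0.26, limma adjusted p = 0.034). The other Jund probe set, averaged 72.5 with GSH, 56.9 in Nrf2-/- cells and 45.7 in wild type. It was above the control level on 2 GSH, 2 Nrf2-/- and 1 wild-type arrays and was not tested.

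The set itself was tested as a term of the same fit. Junb was 2.11-fold lower in set 3 than in set 2 (log2 difference -1.08 ± 0.06 SE, limma adjusted p = 1.9e-06) and Jun 1.52-fold lower by its leading probe set (-0.60 ± 0.05, limma adjusted p = 2.2e-05), while Jund was 1.51-fold higher (0.60 ± 0.09, limma adjusted p = 5.2e-04). The brighter Fosl2 probe set was higher in set 3 (0.37, limma adjusted p = 2.9e-04) and the dimmer one lower (-0.33, limma adjusted p = 0.019), so the probe sets of 1 gene disagreed. The dimmer Jun probe set differed by -0.12 (limma adjusted p = 0.18). In all, 5 of 12 member probe sets were called between sets, 2 higher and 3 lower, where 38.9% of all probe sets were called (17.4% higher, 21.5% lower). Fos (0.12), Fosl1 (0.01), Fosb (0.08), Atf3 (0.16), Egr1 (0.03) and Ier3 (-0.09) were not called. The 3' to 5' probe set ratio of Gapdh, a measure of RNA integrity, lay between 0.847 and 0.895 on set 3 arrays, against 0.777 to 0.801 on those of set 2, and its part in the set differences was not tested.

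**Figure D3:**
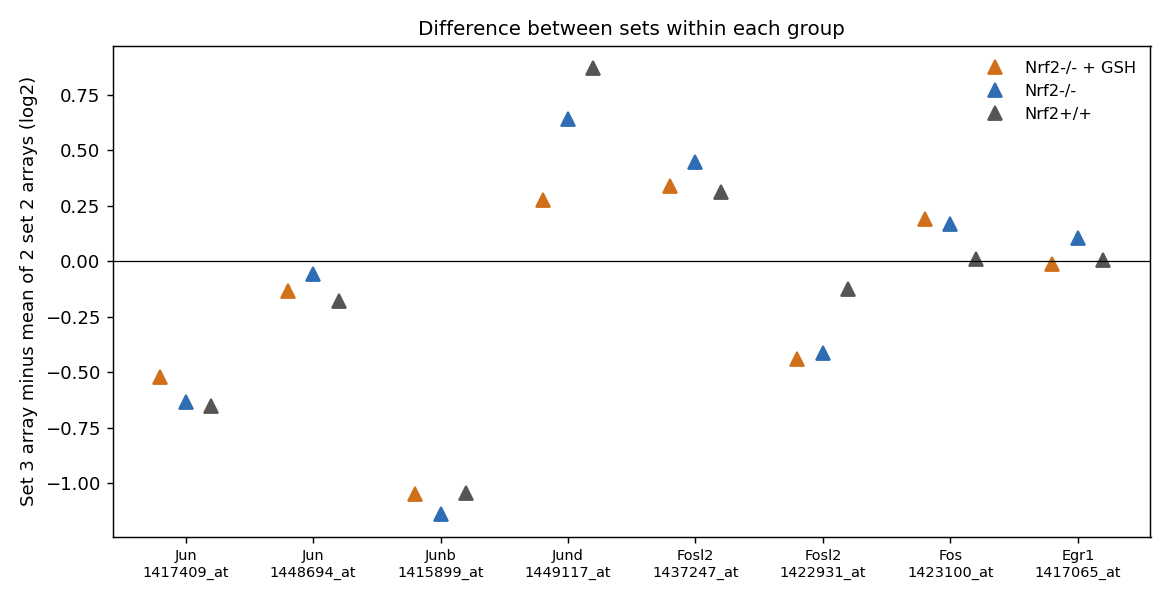
Log2 signal of the set 3 array minus the mean of the 2 set 2 arrays of the same group (y axis), for 8 member probe sets (x axis). Junb lies between -1.14 and -1.04 in all 3 groups, whereas Jund spreads over 0.28 with GSH, 0.64 in Nrf2-/- cells and 0.87 in wild type.

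Atf3 was higher in Nrf2-/- than in wild-type cells and higher again with GSH. The gene, which encodes a stress-induced partner of Jun proteins that often represses, read 1501.1, 1600.8 and 1739.8 in Nrf2-/- cells with GSH and 1141.1, 1017.7 and 1198.4 in Nrf2-/- cells, against 625.3, 626.5 and 693.8 in wild-type cells. No 2 groups overlapped. It was 2.49-fold higher with GSH than in wild type (log2 difference 1.31 ± 0.08 SE, limma adjusted p = 8.5e-08) and 1.72-fold higher in Nrf2-/- cells than in wild type (0.79 ± 0.08, limma adjusted p = 1.5e-05). With GSH it was 1.44-fold higher than in Nrf2-/- cells without it (0.53 ± 0.08, limma adjusted p = 1.9e-04). Within set 2 these differences were 1.31, 0.78 and 0.52, and between the set 3 arrays 1.33, 0.79 and 0.54. Macrophage marker sums ran in the same order as Atf3 (128582 to 151503 with GSH and 97563.6 to 118807 in Nrf2-/- cells, against 63563.4 to 65913.3 in wild type). Not every marker did. With GSH against Nrf2-/- cells 9 of the 15 were called higher and 2 lower, and in Nrf2-/- against wild-type cells 13 and 2. The part of these markers was not tested.

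Egr1, a zinc finger factor induced through the same serum response pathway as Fos, was high in Nrf2-/- cells alone among the 3 groups. It read 3230.2, 2817.9 and 2985.9 with GSH and 6017.9, 5617.8 and 6249.2 in Nrf2-/- cells, against 3050.6, 3077.7 and 3074.3 in wild-type cells. The Nrf2-/- arrays without GSH stood above all others, and the GSH arrays spread around the wild-type ones. Egr1 was 1.98-fold lower with GSH than without it (log2 difference -0.99 ± 0.07 SE, limma adjusted p = 5.5e-07) and 1.94-fold higher in Nrf2-/- than in wild-type cells (0.96 ± 0.07, limma adjusted p = 1.3e-06). With GSH it differed from wild type by -0.03, with a 95% interval of -0.18 to 0.12 (limma adjusted p = 0.76). Fibroblast marker sums were highest where Egr1 was (56405.3 to 65572.6 with GSH, 110843 to 144923 in Nrf2-/- cells and 88181.3 to 96496.7 in wild type). Epithelial sums were lowest there (65757.2 to 69245.5 with GSH, 13468.1 to 14802.4 in Nrf2-/- cells and 47024 to 49390.8 in wild type). Their part in the Egr1 differences was not tested.

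Ier3, an immediate early gene whose protein modulates survival and ERK signalling, read 14350.5, 13595.3 and 13378.3 with GSH and 9238.8, 9414.9 and 8766.8 in Nrf2-/- cells, against 11054.5, 11127.4 and 10171.4 in wild-type cells. No 2 groups overlapped, with the Nrf2-/- arrays lowest and the GSH arrays highest. Ier3 was 1.51-fold higher with GSH than in Nrf2-/- cells (log2 difference 0.59 ± 0.05 SE, limma adjusted p = 6.4e-06) and 1.28-fold higher than in wild type (0.35 ± 0.05, limma adjusted p = 2.8e-04), a difference that quantile normalisation reduced to 0.19 (limma adjusted p = 0.0072). It was 1.18-fold lower in Nrf2-/- than in wild-type cells (-0.24 ± 0.05, limma adjusted p = 0.0072), a call that was lost at the same difference without the set in the model (limma adjusted p = 0.063), by the fold rule of the design text, and with the replicate number as a block (-0.30, limma adjusted p = 0.057). Epithelial marker sums had the same order of groups as Ier3 (65757.2 to 69245.5 with GSH, 13468.1 to 14802.4 in Nrf2-/- cells and 47024 to 49390.8 in wild type), and their part was not tested.

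Other immediate early genes were called in both directions. Of 28 listed, 26 passed the filter. Each listed gene was counted by its brightest probe set, whereas the shares over all probe sets include dimmer ones, and no list was tested against them. With GSH against Nrf2-/- cells 9 rose and 7 fell (median log2 difference -0.13), with GSH against wild type 7 rose and 10 fell (-0.07), and in Nrf2-/- against wild-type cells 5 rose and 9 fell (-0.04). Over all probe sets 35.4%, 44.7% and 29.1% were called in these comparisons. Nr4a1, an orphan nuclear receptor, read 597.3, 633.4 and 502.7 with GSH and 2036.9, 2150.5 and 2110.4 in Nrf2-/- cells, against 2469.7, 2452.8 and 2152.2 in wild type. It was thus low with GSH, by -1.87 against Nrf2-/- cells (limma adjusted p = 9.6e-09) and by -2.03 against wild type (limma adjusted p = 4.6e-09). Egr2, a relative of Egr1, was lowest where Egr1 was highest. Its brighter probe set read 1593.4, 1703.9 and 1829.1 with GSH and 541.5, 523.4 and 644.8 in Nrf2-/- cells, against 878.4, 893.4 and 1023.4 in wild type, and was lowest in Nrf2-/- cells (-0.71 against wild type, limma adjusted p = 3.0e-05) and higher with GSH than in them (1.59, limma adjusted p = 2.4e-08). Its dimmer probe set moved the same way in both (-1.47 and 1.15), but against wild type GSH cells stood at 0.88 by the brighter probe set and -0.32 by the dimmer one (limma adjusted p = 2.2e-06 and 0.18). Klf2, a Krüppel-like factor, was highest in Nrf2-/- cells as Egr1 was, with a log2 difference of 1.32 from wild type and of -1.59 between GSH cells and Nrf2-/- cells (limma adjusted p = 5.0e-06 and 5.6e-07). Zfp36, whose protein speeds the decay of unstable transcripts, was higher in Nrf2-/- than in wild-type cells (0.70, limma adjusted p = 2.6e-05). The growth arrest gene Gadd45g was lower than in wild type in Nrf2-/- cells with GSH (-1.28) and without (-1.10), and Nfil3 was lower with GSH than in Nrf2-/- cells (-1.71) and wild type (-1.16). The group means of Klf2 and Nfil3 had the order of the fibroblast marker sums (56405.3 to 65572.6 with GSH, 110843 to 144923 in Nrf2-/- cells and 88181.3 to 96496.7 in wild type). Those of the brighter Egr2 probe set had the order of the epithelial sums (65757.2 to 69245.5 with GSH, 13468.1 to 14802.4 in Nrf2-/- cells and 47024 to 49390.8 in wild type). The part of these markers was not tested.

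Among other AP-1 and related leucine zipper partners, 13 of 14 listed were measured and passed. With GSH against Nrf2-/- cells 5 rose and 4 fell (median 0.02), with GSH against wild type 3 rose and 3 fell (-0.01), and in Nrf2-/- against wild-type cells 3 rose and 2 fell (0.11), beside shares of 35.4%, 44.7% and 29.1% called over all probe sets. Batf, a partner of Jun proteins in immune cells, averaged 1355 ± 126 with GSH and 1125 ± 143 in Nrf2-/- cells, against 417 ± 24.4 in wild type (SD, n = 3), log2 differences from wild type of 1.70 and 1.43 (limma adjusted p = 5.0e-08 and 5.4e-07). Its order of groups was that of the macrophage marker sums given above, and their part was not tested. Jdp2, which encodes a repressor that pairs with Jun proteins, was lower with GSH than in Nrf2-/- cells (-0.75) and wild type (-0.74). Maf was higher in Nrf2-/- than in wild-type cells (0.60) and lower with GSH than in Nrf2-/- cells (-0.70). Ddit3 (-0.90) and Atf4 by its brightest probe set (-0.60), stress factors of the same class, were lower with GSH than in Nrf2-/- cells. The Atf4 probe set next in brightness overlapped between these groups (2334.1, 2507.4 and 3417 with GSH, 2769.7, 2856.5 and 3077.5 without). Maff, also in the immediate early list, was lower in Nrf2-/- than in wild-type cells (-0.49, limma adjusted p = 0.0015), and Creb5 was higher than wild type with GSH (1.42) and without (0.66).

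MAP kinases and serum response factors, which carry growth factor and stress signals to these genes, had log2 differences of -0.43 to 0.94. Of 23 listed, 19 were measured and 17 passed the filter. With GSH against Nrf2-/- cells 5 rose and 2 fell (median 0.06), with GSH against wild type 5 rose and 3 fell (0.02), and in Nrf2-/- against wild-type cells 3 rose and 3 fell (-0.07). These counts lay near the shares over all probe sets (35.4%, 44.7% and 29.1%). Mapk8, the gene of the kinase JNK1 that phosphorylates c-Jun, averaged 918 ± 32.8 with GSH and 709 ± 41.7 in Nrf2-/- cells, against 952 ± 32.9 in wild type. It was lower in Nrf2-/- than in wild-type cells (-0.43, limma adjusted p = 0.0013) and higher with GSH than in them (0.37, limma adjusted p = 0.0021). Of its 4 dimmer probe sets, 0 were called between Nrf2-/- and wild-type cells and 1 was called, higher, between the Nrf2-/- groups. Map2k3 was called in the same directions (-0.42 and 0.44), while Map3k8 was higher than wild type in Nrf2-/- cells with GSH (0.94) and without (0.86).

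Of 15 listed phosphatases and feedback inhibitors that shut these kinases off, 14 passed the filter. With GSH against Nrf2-/- cells 3 rose and 7 fell (median -0.16), with GSH against wild type 3 rose and 8 fell (-0.41), and in Nrf2-/- against wild-type cells 3 rose and 5 fell (0.06). Over all probe sets 18.4% were higher and 17.0% lower, 22.5% and 22.3%, and 14.6% in each direction in these comparisons. Dusp4, a nuclear ERK phosphatase, averaged 1663 ± 102 with GSH and 1556 ± 201 in Nrf2-/- cells, against 3494 ± 340 in wild type, log2 differences of -1.07 and -1.17 (limma adjusted p = 1.0e-07 and 1.5e-07). Dusp5 (-0.89 with GSH, -1.08 without) and Dusp14 (-0.84 with GSH, -1.25 without) were also lower than wild type in both Nrf2-/- groups. Dusp1, itself an immediate early gene whose protein inactivates p38 and JNK, averaged 5564 ± 587 with GSH and 3127 ± 177 in Nrf2-/- cells, against 3658 ± 112 in wild type, and was higher with GSH than in either (0.83 and 0.60, limma adjusted p = 4.6e-06 and 4.5e-05). Spry2, a brake on receptor tyrosine kinases, averaged 793 ± 103 with GSH and 2417 ± 351 in Nrf2-/- cells, against 1574 ± 81.4 in wild type, and was lower with GSH than in Nrf2-/- cells (-1.61, limma adjusted p = 3.5e-07). Spry2 had the order of groups of the fibroblast marker sums (56405.3 to 65572.6 with GSH, 110843 to 144923 in Nrf2-/- cells and 88181.3 to 96496.7 in wild type), and their part was not tested.

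Of 16 genes reported as AP-1 targets, 15 were measured and 14 passed the filter. With GSH against Nrf2-/- cells 7 rose and 6 fell (median 0.16), with GSH against wild type 5 rose and 5 fell (-0.01), and in Nrf2-/- against wild-type cells 5 rose and 6 fell (0.05), beside shares of 35.4%, 44.7% and 29.1% called over all probe sets. The matrix metalloproteinase gene Mmp3 read 332.9, 274.3 and 263.9 with GSH and 3389.1, 2429 and 4010.9 in Nrf2-/- cells, against 2806.1, 2987.1 and 3460.9 in wild type. It was low with GSH, by -3.47 against Nrf2-/- cells (limma adjusted p = 1.3e-08) and by -3.41 against wild type, and Mmp10 likewise (-3.13 and -2.39). Mmp13, in contrast, was higher than wild type with GSH (0.72) and without (0.61). The EGF receptor ligand Hbegf averaged 3276 ± 774 with GSH and 1234 ± 322 in Nrf2-/- cells, against 3620 ± 836 in wild type. The cornified envelope gene Ivl averaged 1267 ± 189 with GSH and 277 ± 23.0 in Nrf2-/- cells, against 973 ± 109 in wild type. Both were lower in Nrf2-/- than in wild-type cells (-1.56 and -1.81) and higher with GSH than in Nrf2-/- cells (1.42 and 2.19). Vegfa was lower with GSH than in wild type (-1.31) and Ptgs2, the gene of cyclooxygenase-2, lower in Nrf2-/- than in wild-type cells (-0.56). Fibroblast marker sums, the lowest with GSH, moved with Mmp3 and Mmp10, and epithelial sums, the lowest in Nrf2-/- cells, with Hbegf and Ivl. Between the Nrf2-/- groups the median log2 difference was -2.54 over the fibroblast markers (-4.11 to 0.08). Over the epithelial markers it was 2.22 (1.625 to 3.076). The sums stand above, and the part of these markers was not tested.

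**Figure D4:**
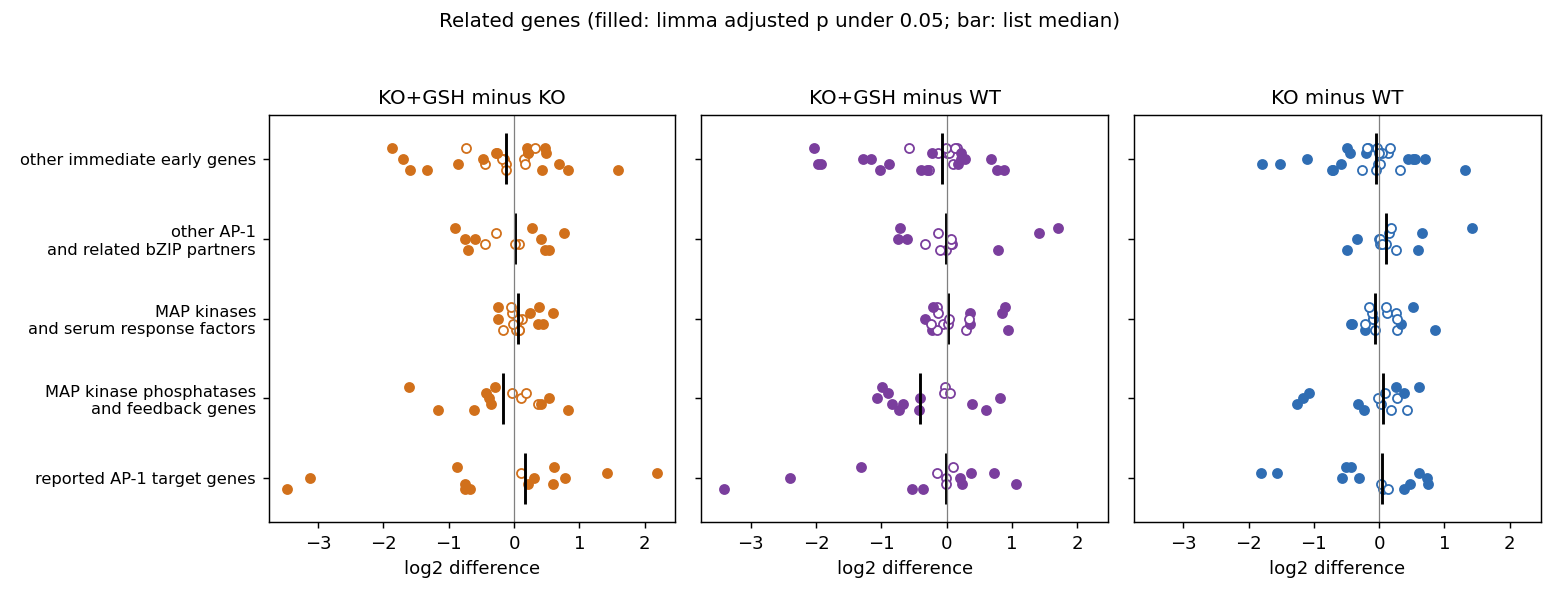
Log2 difference of each gene's leading probe set (x axis) in 5 lists (y axis), for the 3 comparisons, with list medians as bars. Filled points passed a limma adjusted p under 0.05. List medians stay between -0.41 and 0.16, while single genes reach -3.47 and 2.19.

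Marker lists gave the following counts. Of all probe sets, 35.4% were called with GSH against Nrf2-/- cells, 44.7% with GSH against wild type and 29.1% between Nrf2-/- and wild-type cells. With GSH against Nrf2-/- cells, 6 of 6 epithelial markers rose and 0 fell, 9 of 15 macrophage markers rose and 2 fell, 0 of 11 fibroblast markers rose and 9 fell, 3 of 6 type II markers and 2 of 7 type I markers rose with 0 falling, and 0 of 4 endothelial markers passed. With GSH against wild type the higher and lower calls were 6 and 0 for epithelial, 14 and 0 for macrophage, 1 and 9 for fibroblast, 2 and 0 for type II, 1 and 4 for type I and 0 and 4 for endothelial markers. In Nrf2-/- against wild-type cells they were 0 and 6 for epithelial, 13 and 2 for macrophage, 9 and 1 for fibroblast, 1 and 1 for type II, 0 and 5 for type I and 0 and 1 for endothelial markers. The 1 lymphocyte marker that passed the filter was called in no comparison.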

How the data were processed

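Intensities per probe set from Affymetrix Mouse 430 2.0 arrays, named in the series design text, were used as the authors deposited them, on a linear scale. The 2% trimmed mean was 500 on each of the 9 arrays, so they had been scaled. No label or header names the summary software. Of 45101 probe sets, 64 controls were left out. Values at 0 (2 in all) were set to 0.1 and log2 taken. Probe sets below the median mean log2 intensity (a geometric mean of 116) were dropped, leaving 22519. Symbols came from the platform annotation, only from probe sets with 1 symbol.

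Limma 3.58.1 in R 4.3.3 fitted group and set on all 9 arrays, letting the prior variance follow intensity (residual degrees of freedom 5, prior 6.08). The control level is the 95th percentile of 27 unspiked bacterial control probe sets per array. Replicate numbers 2, 3 and 4 occur in both Nrf2-/- groups. Deviations of same-numbered arrays from their group means correlated at 0.32, 0.289 and 0.667, the last being the arrays of set 3. Unequal numbers within set 2 correlated at 0.39 and 0.24, so these values show no pairing by number beyond the shared set. The main fit has the set and no pairing term. The replicate block was an alternative. The fit was tested on simulated data.

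The 10 members, the lists, the model and the alternatives were chosen with earlier results of these data known, and the searches for TGACG and TATAAA were added last. Every member probe set is described; of each list up to 4 genes with the smallest p per comparison could be named, with a few markers; likeness was taken for the member with the widest span of group means. Alternatives changed the set term, replicate block, normalisation, filter, log offset, trend, arrays in the fit and call rule. Precision is limited by 3 arrays per group. Promoter windows are RefSeq's, GRCm38.p6.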

Additional observations from a re-analysis of the deposited data

How the results depend on the processing

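Each result was recomputed under up to 19 alternatives: 10 other settings and 9 fits that left out 1 array each. Fos, Fosl1, Atf3 and Egr1 kept direction and call against wild type in all 19 (Egr1 with GSH, not called, aside). Member calls were 1 to 5 with GSH against Nrf2-/- cells, 3 to 6 with GSH against wild type and 4 to 6 for Nrf2-/- against wild-type cells. The fold rule of the design text gave 1 and 3 in the first and second of these. By it Atf3 between the Nrf2-/- groups and Ier3 in all 3 comparisons were no longer called, and neither were Junb and Fosl2. It called 3425, 4515 and 2271 probe sets in the 3 comparisons in that order, against 7964, 10074 and 6560 by the main model, and without the set the counts were 4574, 6181 and 2774. Leaving out 1 array gave 4 to 5, 5 to 6 and 5 to 6 member calls, and 6659 to 7847, 8184 to 10452 and 4500 to 6825 probe sets.

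The replicate block gave 5824, 6586 and 3253 probe sets and 3, 4 and 4 members. It turned Junb with GSH against wild type to -0.087 (limma adjusted p = 0.828), Junb in Nrf2-/- against wild-type cells to -0.476, Jun with GSH against wild type to -0.273 and Fosl2 in Nrf2-/- against wild-type cells to 0.016, and ended the calls of Fosl2 with GSH against wild type (-0.008) and Ier3 in Nrf2-/- against wild-type cells (-0.299, limma adjusted p = 0.0567). Wild type shares only numbers 3 and 4 with the other groups, and number 4 joins set 2 with set 3 (correlations of -0.452 and -0.485), so the block does not pair wild-type arrays. This mismatch also enters the p-values between the Nrf2-/- groups, as all arrays share the estimate of spread. All other sign changes were in differences that were not called: Egr1 with GSH against wild type with quantile normalisation (0.007) or without GSH replicate 3 (0.016; -0.091 to 0.016 over left-out arrays), Fosb in Nrf2-/- against wild-type cells without wild-type replicate 4 (0.038; -0.136 to 0.038), Fosl2 between the Nrf2-/- groups in set 2 (0.012) or without Nrf2-/- replicate 4 (0.017; -0.055 to 0.017), Jun with GSH against wild type in set 2 (-0.014) or without GSH replicate 4 (-0.01; -0.01 to 0.072), Junb in Nrf2-/- against wild-type cells without Nrf2-/- replicate 3 (-0.005; -0.005 to 0.048), and Jund between the Nrf2-/- groups in set 2 (0.073) or without GSH replicate 4 (0.111; -0.12 to 0.111). Jun passed between the Nrf2-/- groups without GSH replicate 2 (0.212, limma adjusted p = 0.0312), with quantile normalisation (limma adjusted p = 0.0383) and with a stricter filter (limma adjusted p = 0.0423), and Jund passed with GSH against wild type without GSH replicate 4 (0.255, limma adjusted p = 0.0343). Ier3 with GSH against wild type was 0.193 to 0.38 over all alternatives, lowest with quantile normalisation, and Fosl1 between the Nrf2-/- groups was -0.347 to -0.058 with 1 array left out. The cause of the changes outside the block was not tested. Signals near the control level, as of the dimmer Fosl1 and Jund probe sets, limit what can be read from them.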
